A study of Homo sapiens with 4 samples.

Results

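Interleukin 1 (IL1) family cytokines and their receptors were followed at the RNA level in SCC-15 cells, an established human line from a squamous cell carcinoma of the tongue. The 10 genes described are the ligand genes IL1A, IL1B, IL36G, IL18 and IL33, the antagonist genes IL1RN and IL36RN, and the receptor genes IL1R1, IL1R2 and IL1RAP. They are 10 of the 18132 genes that the array's annotation names from probe sets assigned to a single gene, and every such probe set of each of them was taken, 19 in all. Cells given a microRNA mimic (2 arrays) were compared with cells given the negative control oligonucleotide miR-NC (2 arrays). A mimic is a synthetic oligonucleotide made to act as a mature microRNA does. Both groups were transfected at 30 nM, 24 h after seeding, and total RNA was taken 36 h after transfection and hybridised to 1-colour Affymetrix arrays. The series title and design name the mimic miR-762, whereas the labels of both mimic samples name it miR-585-5p, so that the group is called "mimic" here. A single cell line was used, and the labels do not say whether replicates came from separate cultures, so that p-values rest on array-to-array spread that may be no more than technical.

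IL1 family ligands are secreted or released proteins with which epithelial and myeloid cells signal infection and injury. An agonist such as IL1 alpha or IL1 beta binds its receptor, the accessory protein encoded by IL1RAP joins the complex, and the adaptor MYD88 and IRAK kinases carry the signal to NF-kB and MAP kinases. The system is held in check by receptor antagonists, which bind without recruiting the accessory protein, and by decoy receptors, which bind without signalling. In squamous epithelium IL1 alpha is stored inside keratinocytes, and IL36 ligands are known for their role in psoriasis.

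The 2 microRNAs named in the sources are shown first, because they do not have the same sequence and the identity of the transfected mimic could not be settled from the labels. Both are RefSeq mature sequences (GRCh38.p14), 5′ to 3′, with the seed, bases 2 to 8, in capitals. The hsa-miR-762 sequence lies on the plus strand at chr16:30893951-30893972 and that of hsa-miR-585-5p on the minus strand at chr5:169263649-169263670.
hsa-miR-762: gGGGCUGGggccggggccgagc
hsa-miR-585-5p: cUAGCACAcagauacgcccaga
Both are 22 bases long. Their seeds carry the same base at 2 of 7 positions, and G and C make up 90.9% of hsa-miR-762 and 54.5% of hsa-miR-585-5p.

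Values are log2 of the deposited RMA intensities, and a difference is always mimic minus control on that scale. Probe sets in the lowest 30% by mean level, below 2.83 on the log2 scale or 7.10 as an intensity, were treated as dim and not tested. The probe set of highest mean stands for each gene, and a gene is said to rise or fall only where limma's adjusted p over all 14340 genes tested was below 0.05. On that rule 17.7% of all genes rose and 12.3% fell, 30.1% in either direction, and 2.26% also differed by 2-fold or more. The split depended on scaling: 2544 genes rose and 1766 fell, but after a second quantile normalization across the arrays 2058 rose and 2619 fell. The median difference of all genes was -0.02. Replicate arrays correlated at r = 0.998 for mimic and r = 0.997 for control over probe sets, which do not count as replicates. Taken gene by gene, an exact permutation test of 2 arrays against 2 cannot give a two-sided p below 0.333.

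Of the 10 genes, 8 passed the filter on dim probe sets and were tested. IL1A, IL1B, IL1RN and IL1RAP rose, IL36RN and IL1R1 fell, and IL36G and IL18 did not pass. IL33 and IL1R2 were dim and not tested. IL1RN counts as a rise through a probe set chosen by its mimic values, and its second probe set did not rise. The 4 of 8 that rose compare with 17.7% of all genes, and the 2 of 8 that fell with 12.3%. The members were chosen with earlier results of these data known, so these shares describe them and test nothing. The median difference of the 8 genes was 0.27, against -0.02 for all genes. The mimic and control arrays did not overlap for 7 of the 8, a pattern that 70.4% of all genes shared. Mimic arrays were above in 5 of these (34.2% of all genes) and below in 2 (36.3% of all genes). The size of the differences set the members apart from each other: a difference as large as that of IL1B, in either direction, was found in 1.74% of all genes, one as large as that of IL1RN in 2.9%, and one as large as that of IL1A in 11.9%. The differences of IL1RAP (28.6%), IL36G (37%) and IL1R1 (40.6%), in the probe sets representing these genes, were of a size common among all genes.

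The counts depended on having all 4 arrays. A call lost without a mimic array is no trait of 1 gene, since every gene then lost its call. On removing either mimic array, no gene of the whole table passed limma's adjusted threshold, so 0 members did, with 5 members (mimic replicate 1 removed) and 6 members (mimic replicate 2 removed) at an unadjusted p below 0.05. Without control replicate 1 or control replicate 2 the members that passed were IL1B and IL1RN, both higher.

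**Figure D1:**
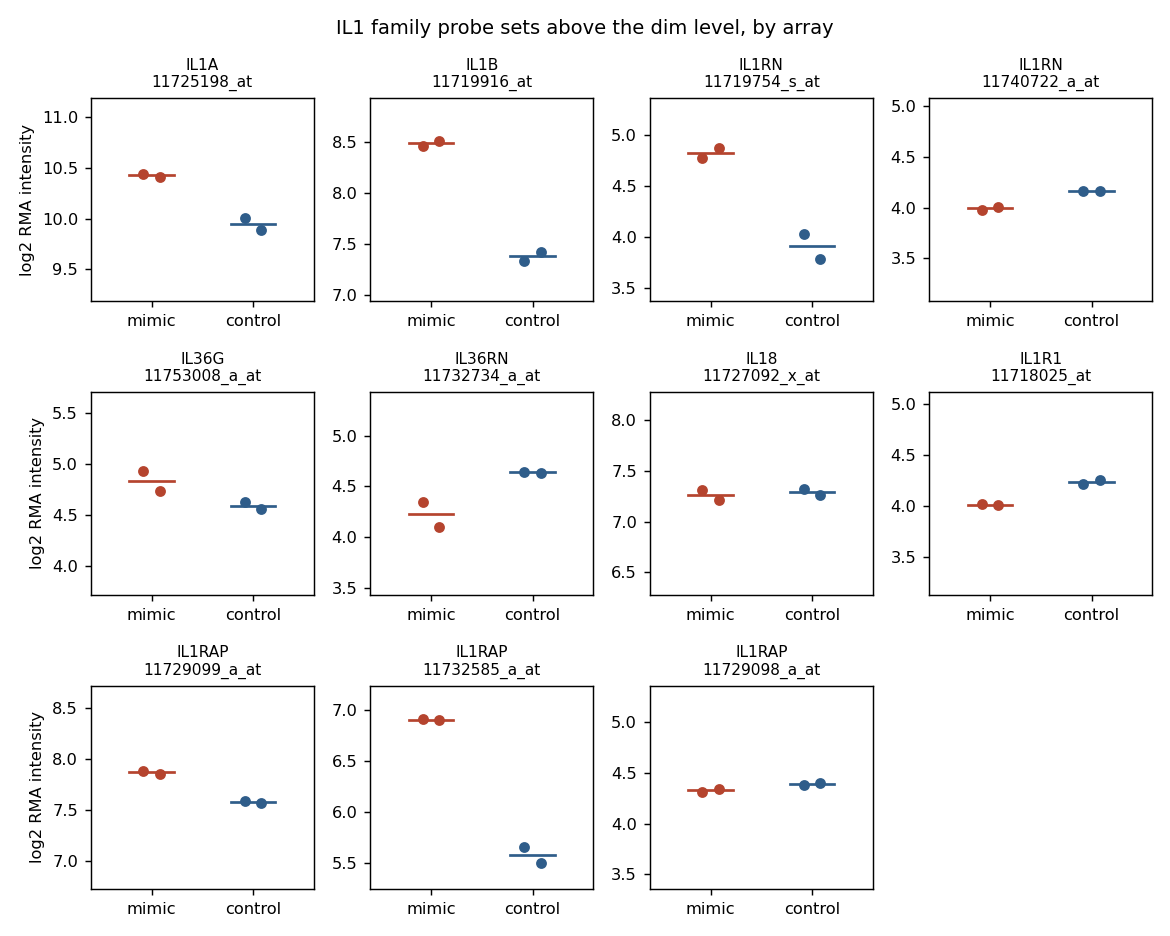
Log2 RMA intensity (y axis, 2 log2 units high in every panel) of the 11 probe sets of IL1 family genes above the dim level, for mimic arrays (left in each panel) and control arrays (right). Points are single arrays and bars are means of 2 arrays. The widest separations are those of IL1B, 1 probe set of IL1RN and 1 of 3 IL1RAP probe sets, and the IL18 arrays overlap.

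Of the agonist genes, IL1B, which encodes the precursor that inflammatory caspases cut to active IL1 beta, had the largest difference. Its log2 intensity was 8.47 and 8.52 in the mimic arrays, against 7.33 and 7.42 in the control arrays. Both mimic arrays stood about 1 log2 unit above both control arrays, and the arrays of a group lay close together. The means were 8.49 ± 0.034 in mimic and 7.38 ± 0.064 in control cells (SD, n = 2 arrays each), a difference of 1.11 ± 0.064 (SE), or 2.16-fold (limma adjusted p = 0.0013). IL1B had a single probe set, so no second one was there to compare.

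IL1A encodes IL1 alpha, which acts as an alarm signal when it leaves damaged epithelial cells and needs no caspase to be active. It gave 10.44 and 10.41 in the mimic arrays, against 10.01 and 9.89 in the control arrays. The groups did not overlap, and the control arrays differed more from each other than the mimic arrays did. The difference was 0.47 ± 0.069 (SE), or 1.39-fold (limma adjusted p = 0.01). The 95% interval of the IL1A difference, 0.30 to 0.65, lay below that of IL1B, 0.95 to 1.28. The call for IL1A was lost on leaving out any 1 array, with differences of 0.41 to 0.54 and limma adjusted p-values of 0.0525 to 0.102.

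IL36G encodes IL36 gamma, an agonist made by keratinocytes. Its values were 4.93 and 4.73 in the mimic arrays, against 4.63 and 4.56 in the control arrays. Both mimic arrays were above both control arrays, but the mimic arrays lay further from each other than the lower of them lay from the nearest control array. The difference of 0.24 ± 0.086 (SE), with a 95% interval of 0.02 to 0.46, did not pass (limma adjusted p = 0.0936). Without mimic replicate 1 it was 0.14.

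IL18, the gene of a cytokine that, like IL1 beta, is released after caspase cleavage, had 7.31 and 7.21 in the mimic arrays, against 7.32 and 7.26 in the control arrays. The groups overlapped. Its difference was -0.03, with a 95% interval of -0.20 to 0.14, and did not pass (limma adjusted p = 0.744). The interval does not include a difference of the size found for IL1A. IL33, the gene of a nuclear alarmin, was dim in all 3 of its probe sets. The brightest of them gave 1.79 and 2.01 in the mimic arrays, against 1.93 and 2.30 in the control arrays. All 4 values lay below the dim level of 2.83, so that no direction is given for IL33. That level is a cut by rank, and no measure of background was used here.

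The antagonist genes differed in opposite directions in the probe sets that represent them. IL1RN encodes the IL1 receptor antagonist, which occupies the receptor of IL1 alpha and IL1 beta without signalling. Its probe set of higher mean over the 4 arrays gave 4.78 and 4.87 in the mimic arrays, against 4.02 and 3.79 in the control arrays. That probe set was the brighter one in the mimic arrays only, so the mimic values decided which probe set stands for IL1RN. The difference was 0.92 ± 0.099 (SE), or 1.89-fold (limma adjusted p = 0.00484), with mimic arrays clear of control arrays by more than the gap within either group. The signal was low, with intensities of 13.8 to 29.3 over the 4 arrays against a dim level of 7.10. With 16 added to the intensity, the difference of IL1RN was 0.52 and that of IL1B 1.04. The second probe set of IL1RN gave 3.98 and 4.01 in the mimic arrays, against 4.17 and 4.16 in the control arrays. Here the order was turned round, and its difference of -0.17 did not pass in the fit across probe sets (limma adjusted p = 0.114). The brighter one is of the kind marked _s_at, whose probes can match several transcripts, and with probe sets of that kind left out IL1RN is represented by the second alone. The mean of both probe sets gave 0.38 (limma adjusted p = 0.0157). Subtracting the second probe set from the first, array by array, gave 0.80 and 0.86 in the mimic arrays, against -0.14 and -0.37 in the control arrays. Which transcripts the probes of either set detect, and whether all of these are of IL1RN, was not tested.

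IL36RN encodes the antagonist of the IL36 receptor. Its brightest probe set gave 4.35 and 4.10 in the mimic arrays, against 4.64 and 4.64 in the control arrays. The control arrays agreed closely, the mimic arrays did not, and all of the mimic values were lower. The difference was -0.41 ± 0.097 (SE), a fall of 1.33-fold (limma adjusted p = 0.0341). The other 2 probe sets of IL36RN were dim. Their differences were -0.32 and -0.0031, and neither was tested. The IL36RN call was lost on leaving out any 1 array, with differences of -0.54 to -0.29 and limma adjusted p-values of 0.0718 to 0.161.

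Among the receptor genes, IL1RAP encodes the accessory protein shared by the receptors for IL1, IL33 and the IL36 cytokines. Its probe sets differed in the size of their differences. The brightest probe set, annotated to the transcript NM_002182.2, gave 7.88 and 7.86 in the mimic arrays, against 7.59 and 7.57 in the control arrays. That is a difference of 0.29 ± 0.056 (SE), or 1.22-fold (limma adjusted p = 0.021). The call was lost on leaving out any 1 array (limma adjusted p = 0.0693 to 0.138) and with the replicate number as a block (0.0508). The next brightest is annotated to NM_134470.2, the RefSeq variant known to encode a short, soluble form of the accessory protein that lacks the membrane anchor. It gave 6.91 and 6.90 in the mimic arrays, against 5.66 and 5.50 in the control arrays. The difference of 1.33 ± 0.081 (SE), or 2.51-fold, was larger than that of any other probe set of the family above the dim level (limma across 31711 probe sets, adjusted p = 0.00173). Across all probe sets tested, 14.5% rose and 7.95% fell.

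The other IL1RAP probe sets gave no call. The third gave 4.32 and 4.34 in the mimic arrays, against 4.38 and 4.40 in the control arrays, a difference of -0.06 that did not pass (limma adjusted p = 0.5). The fourth was dim in every array. The level of the second probe set relative to the first was -0.97 and -0.96 in the mimic arrays, against -1.93 and -2.07 in the control arrays. The relative signal of these probe sets therefore differed between the groups by 1.04 log2 units, with no overlap of arrays. A level of one probe set cannot be set against another as an amount of RNA, and whether the probes separate the soluble from the membrane-bound variant was not tested. Averaging the 3 probe sets above the dim level gave 0.52 for the gene.

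IL1R1 encodes the signalling receptor of IL1 alpha and IL1 beta. It gave 4.02 and 4.01 in the mimic arrays, against 4.22 and 4.25 in the control arrays. The groups were well apart for their spread, and the difference was small, -0.22 ± 0.057 (SE), a fall of 1.17-fold (limma adjusted p = 0.0426). The call was lost in the fit across all probe sets (limma adjusted p = 0.0636) and on leaving out any 1 array. IL1R1 was among the 3585 tested genes with the lowest mean levels, whose median difference was -0.11. Its second probe set was dim. IL1R2, the gene of a decoy receptor that binds IL1 without signalling, had 1.93 and 1.82 in the mimic arrays, against 2.09 and 1.71 in the control arrays, all below the dim level, and was not tested.

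**Figure D2:**
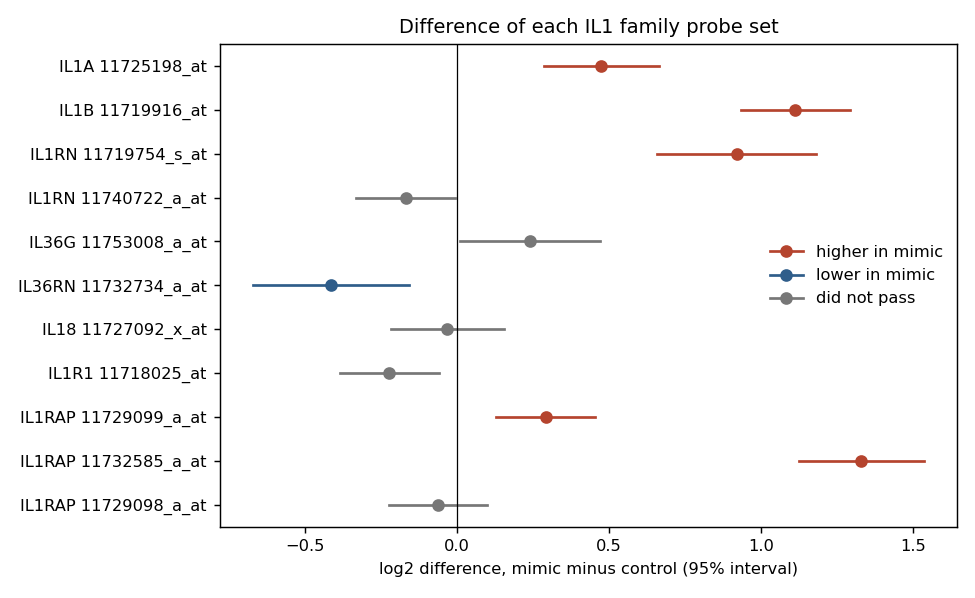
Log2 difference, mimic minus control (x axis), of the 11 IL1 family probe sets above the dim level, from the limma fit across 31711 probe sets. Points are differences and lines are 95% intervals, coloured by whether the adjusted p was below 0.05. Probe sets of IL1RAP run from -0.06 to 1.33 and those of IL1RN from -0.17 to 0.92, and IL1R1 passes in the fit across genes but not in this one.

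Across the 11 probe sets above the dim level, 5 rose, 1 fell and 5 did not pass. Of all 31711 probe sets tested, 14.5% rose and 7.95% fell, 22.4% in either direction. The 11 include 3 of IL1RAP and 2 of IL1RN, so they are not independent of each other. The pattern was thus carried by single probe sets of IL1A, IL1B, IL1RN and IL36RN and by 2 of IL1RAP. In these bulk samples, fewer cells expressing a gene and less of its RNA per cell cannot be told apart.

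Most of these genes lie in a pair of clusters on chromosome 2. In the RefSeq gene table the ligand genes follow each other in the order IL1A, IL1B, IL37, IL36G, IL36A, IL36B, IL36RN, IL1F10 and IL1RN. Along this order the differences were 0.47, 1.11, -0.18 and 0.24 for the first 4, -0.41 for IL36RN and 0.92 for IL1RN. IL36A, IL36B and IL1F10 were dim and not tested. In the receptor cluster, IL1R1 (-0.22) was followed by IL1RL2 (-0.22), IL1RL1 (-0.13) and IL18R1 (-0.0061), of which IL1R1 alone passed.

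The 250 bases before the start of IL1A and IL1B are shown because these neighbouring agonist genes both rose. They are RefSeq sequences (GRCh38.p14), both on the minus strand, printed 5′ to 3′. The IL1A window, before the outermost of its 2 starts, is chr2:112784494-112784743, and the IL1B window is chr2:112836780-112837029. Capitals mark matches to TGANTCA, the AP-1 motif, and to TATAAA, the TATA box. Both strands were searched, also for the kappa-B consensus of NF-kB.
IL1A: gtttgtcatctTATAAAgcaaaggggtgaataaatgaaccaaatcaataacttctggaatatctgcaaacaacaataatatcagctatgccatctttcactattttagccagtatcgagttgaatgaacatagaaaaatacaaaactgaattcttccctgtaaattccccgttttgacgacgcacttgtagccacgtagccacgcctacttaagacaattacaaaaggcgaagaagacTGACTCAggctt
IL1B: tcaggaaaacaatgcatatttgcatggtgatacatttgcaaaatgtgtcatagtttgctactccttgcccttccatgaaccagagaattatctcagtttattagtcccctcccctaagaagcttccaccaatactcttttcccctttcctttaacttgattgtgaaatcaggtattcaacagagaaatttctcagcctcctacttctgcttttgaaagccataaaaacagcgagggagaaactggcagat
The IL1A window held 1 AP-1 match, whose first base lies 12 bases before the start, and 1 TATA match, at 239 bases. The IL1B window held no match to any of the 3 motifs. Of the 35116 promoter windows of this length in the table, 6.57% held the AP-1 motif, 5.21% the kappa-B consensus and 10.7% the TATA box. The window of the second IL1A start held 2 AP-1 matches and no TATA match. Of the 3 IL1RN windows, 1 held an AP-1 match, at 223 bases, and another held overlapping TATA matches on opposite strands. TATA matches also stood in 1 of 4 IL1R1 windows and in 1 of 2 IL1R2 windows. The windows of IL36G, IL36RN, IL33 and IL1RAP held no match to any of the 3 motifs, and IL18 was not analysed here. A match describes letters only and is not evidence of binding, and the absence of one says only that the letters are not in the window.

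Other genes of the pathway were taken from 5 lists. Of 5 further ligands and antagonists, 2 were tested and none passed in limma. IL37, a ligand with anti-inflammatory action, had the smaller unadjusted p, with a difference of -0.18 (limma adjusted p = 0.096). Of 7 further receptors, 5 were tested and none passed in limma. All 5 differences were negative, from -0.30 to -0.0061, with a median of -0.20, against -0.02 for all genes and -0.11 for the 3585 genes with the lowest mean levels, to which all but SIGIRR belong. IL1RAPL1, a relative of IL1RAP known for its role at synapses, had the smallest unadjusted p. It gave 2.82 in both mimic arrays, identical values just under the dim level, against 3.01 and 3.22 in the control arrays. Its difference of -0.30 (limma adjusted p = 0.056) is thus set against a value at the dim level. At an unadjusted p below 0.05 stood IL37 among the ligands and IL1RAPL1, IL1RL2 and SIGIRR among the receptors.

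Of 11 genes that sense danger and process IL1 family precursors, 8 were tested. Of these 1 rose, 2 fell and 5 did not pass, and the median was -0.08. Among all genes 17.7% rose and 12.3% fell, and with so few genes tested the counts are not read further. PYCARD, which encodes the adaptor ASC of the inflammasome, gave 8.20 and 8.12 in the mimic arrays, against 7.83 and 7.84 in the control arrays (difference 0.32 ± 0.06 SE, limma adjusted p = 0.0187). CASP4, an inflammatory caspase gene, fell by 0.55 ± 0.069 (limma adjusted p = 0.00687), with all 6 of its probe sets between -0.56 and -0.39. NLRP3, an inflammasome sensor gene, fell by 0.28 ± 0.057 (limma adjusted p = 0.0234), and its other probe set gave 0.03. Its means were low, 3.60 in mimic and 3.89 in control arrays. That puts NLRP3 among the 3585 tested genes with the lowest mean levels, whose median difference was -0.11. CASP1, the gene of the caspase that cuts the precursors of IL1 beta and IL18, had 5.61 and 5.56 in the mimic arrays, against 5.80 and 5.27 in the control arrays. It was outside the rule for named genes and is given because of that role. Its control arrays enclosed the mimic arrays and its difference of 0.05 did not pass (limma adjusted p = 0.838).

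Of 25 genes of signalling below the receptor, 22 were tested. Of these 3 rose, 3 fell and 16 did not pass, and the median was -0.04. Among all genes 17.7% rose and 12.3% fell, 30.1% in either direction. Calls in this list were thus about as common as among all genes. IRAK2, a kinase gene that prolongs the signal, gave 5.35 and 5.19 in the mimic arrays, against 6.01 and 5.94 in the control arrays (difference -0.70 ± 0.077 SE, limma adjusted p = 0.00499). Its other probe set gave -0.11. MYD88, the adaptor gene, fell by 0.41, with -0.05 in its other probe set, and NFKB1, an NF-kB subunit gene, fell by 0.26. IRAK3, whose product restrains the IRAK kinases, rose by 0.41 ± 0.092 (limma adjusted p = 0.0311), and all 4 of its probe sets were positive. TAB3, an adaptor gene of the TAK1 kinase, rose by 0.68 in its brightest probe set, with others between -0.43 and 1.17, and the kinase gene MAPK8 rose by 0.28.

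Among genes that IL1 family cytokines are known to induce in epithelial cells, falls outnumbered rises. Of 36 listed, 30 were tested. Of these 15 fell, 1 rose and 14 did not pass, and the median was -0.34, against -0.02 for all genes. The 15 of 30 that fell compare with 12.3% of all genes. The list was chosen with earlier results of these data known, so its share and median are descriptions and test nothing. IL6, the gene of a cytokine of the acute response, gave 5.76 and 5.85 in the mimic arrays, against 8.03 and 8.31 in the control arrays, although its second probe set differed by only -0.16. DEFB4A, a beta-defensin gene, gave 5.99 and 6.07 in the mimic arrays, against 7.80 and 7.86 in the control arrays. CXCL1, a neutrophil chemokine gene, gave 9.16 and 9.22 in the mimic arrays, against 10.37 and 10.53 in the control arrays. These are falls of 2.37, 1.80 and 1.26 (limma adjusted p = 0.00106, 0.000784 and 0.00138). The 1 listed gene that rose was CCL2, a monocyte chemokine gene. It gave 4.77 and 4.86 in the mimic arrays, against 3.96 and 4.18 in the control arrays, a rise of 0.75 (limma adjusted p = 0.00658). At an unadjusted limma p below 0.05, 18 listed genes were lower and 3 higher, with MMP9 and PTGES among the latter.

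CXCL8 and CCL20, chemokine genes named here after their values were seen, differed by -0.08 and -0.0055 and did not pass. The 3 CXCL8 probe sets above the dim level ran from -0.42 to -0.08, and the brightest, which represents the gene, had the smallest difference. DEFB4A, S100A7, SAA1 and SAA2 have near-identical relatives, which array probes may not separate. Without control replicate 1 and control replicate 2, 7 and 9 genes of this list fell in limma, and without either mimic array none did, with 15 at an unadjusted p below 0.05 in each case. The median stayed between -0.38 and -0.27 on leaving out any 1 array.

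**Figure D3:**
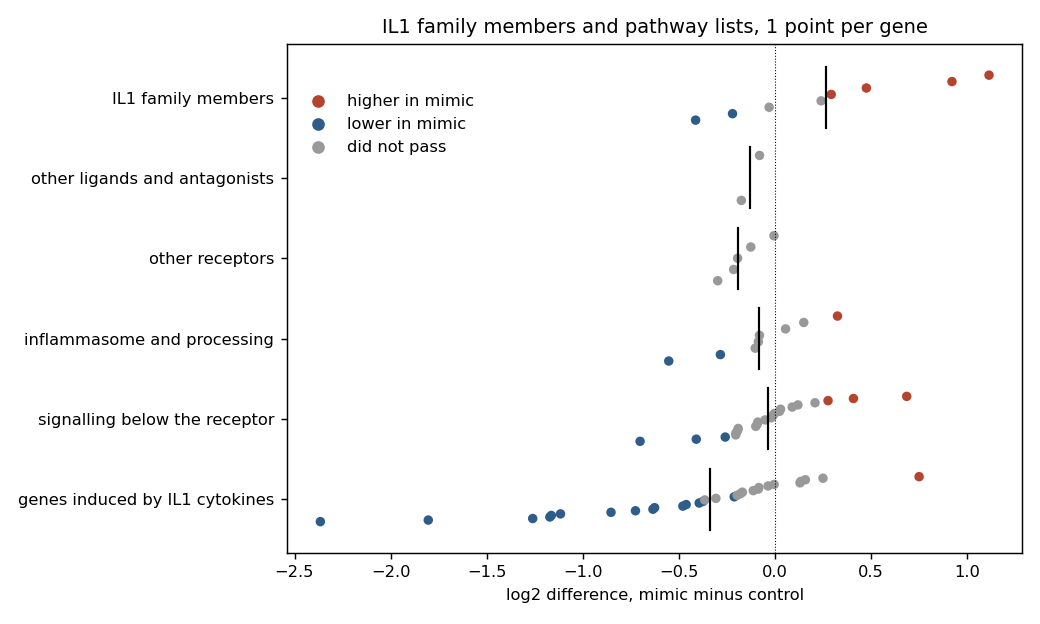
Log2 difference, mimic minus control (x axis), of the 8 IL1 family genes tested and of the tested genes of 5 pathway lists, 1 point per gene, coloured by the limma call, with black bars at the medians. The members have a median of 0.27, and the genes induced by IL1 family cytokines a median of -0.34 with IL6 at the far left.

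The genes whose 4 values were most like those of IL1B, by root mean square distance of mean-centred log2 values over the 4 arrays, were KIF23 (0.0174), TTC9 (0.0219) and HTRA1 (0.0227). They differed by 1.13, 1.16 and 1.13. The genes most like IL36RN were IL10 (0.0103), SNX7 (0.0146) and RARB (0.0176), which differed by -0.42, -0.41 and -0.43. With 4 arrays in 2 groups, this likeness says little more than that the group differences are of the same size.

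The arrays carried the markers of squamous epithelium that could be measured. KRT5, KRT14, SFN, CDH1 and DSG3 were all above the dim level, with a summed intensity of 9900 to 10080 in the mimic arrays and 7543 to 7913 in the control arrays, and KRT5 and KRT14 rose. Myeloid cells are another known source of IL1 beta. Of 8 leukocyte and myeloid markers, PTPRC, ITGAM and LYZ were below the dim level in their mean over the arrays, and the summed intensity of all 8 was 171.3 to 179.2 in the mimic arrays and 157.7 to 169.1 in the control arrays. CD14 and CD68 of that list rose by 0.53 and 0.34 and TYROBP fell by 0.45. Summed intensities were 64.26 to 65.02 in mimic and 69.2 to 69.69 in control arrays for 5 lymphocyte markers, and 73.6 to 74.16 in mimic and 80.85 to 83.12 in control arrays for 4 endothelial markers. For 6 fibroblast markers they were 55.44 to 62.37 in mimic and 66 to 67.98 in control arrays. The lymphocyte, endothelial and fibroblast markers above the dim level of 2.83 had low log2 values, from 3.33 (COL1A2) to 4.98 (VWF). The 3585 tested genes with the lowest mean levels, up to 4.36, had a median difference of -0.11. No content of these cell types is read from such sums. The part of any of the marker lists in the results above was not tested.

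**Figure D4:**
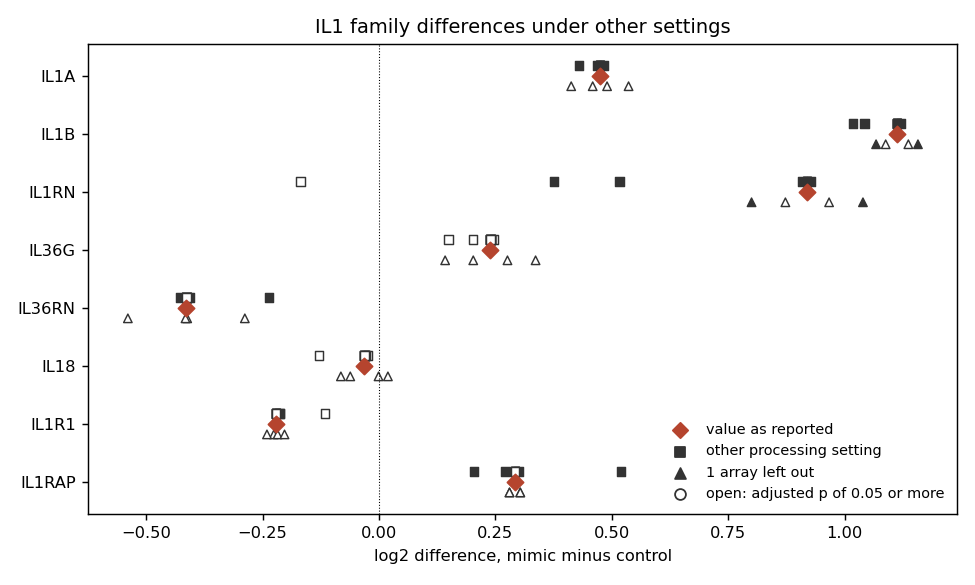
Log2 difference, mimic minus control (x axis), of the 8 tested IL1 family genes as reported (diamonds), under other processing settings (squares) and with 1 array left out (triangles); open symbols have an adjusted p of 0.05 or more. IL1B stays between 1.02 and 1.16, while IL1RN spans -0.17 to 1.04 and turns negative in the setting without _s_at and _x_at probe sets.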

How the data were processed

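RNA of 2 mimic and 2 control samples was measured on 1 array each. The deposited intensities, 1 per probe set and array on a linear scale from 1.62 to 11401, were made by the authors with RMA, per the submitters' processing notes; the software is not given in the sources used here. RMA corrects background, quantile-normalizes and summarises probes, and it compresses differences of dim probe sets. From these, log2 values were computed. Of 49293 probe sets, 44988 had 1 gene (44961 named through RefSeq, GRCh38.p14), 1832 several and 2473 none; the last 2 kinds were left out. Dim probe sets (lowest 30%) were removed and genes represented by their brightest probe set. Mimic and control were compared with limma 3.58.1 in R 4.3.3 (lmFit, eBayes, 4.98 total degrees of freedom, no replicate block) with Benjamini-Hochberg adjustment, and again across 31711 probe sets. The script was tested on simulated data. The number of arrays limits the precision.

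Members and lists were chosen with earlier results of these data known. Named were all members; up to 3 called genes per list and direction, or in a list with none that of smallest p; and the 3 genes most like the leading member in each direction. Other normalizations, filters, log offset, probe set choices, variance prior, a replicate block and each array left out were tried. Same-numbered arrays did not deviate together (r = -0.00105 across genes), so numbers were not taken as pairs.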

Additional observations from a re-analysis of the deposited data

How the results depend on the processing

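Of 13 alternatives, 9 kept all 4 arrays. IL1A, IL1B and IL36RN kept their direction in all 13, and IL1RAP and IL1R1 did too. Their differences ranged from 0.41 to 0.54 for IL1A, 1.02 to 1.16 for IL1B, -0.54 to -0.24 for IL36RN, 0.20 to 0.52 for IL1RAP and -0.24 to -0.12 for IL1R1. IL36G ranged from 0.14 to 0.34 and passed in none. IL1RN reversed to -0.17 (limma adjusted p = 0.105) with _s_at and _x_at probe sets left out, which leaves its second probe set, and IL18 ranged from -0.082 to 0.019 (without mimic replicate 2) with 1 array left out and had no value without _x_at probe sets. With all 4 arrays, the calls for IL1A and IL1B held in 9 of 9 settings, those for IL1RN, IL36RN and IL1RAP in 8 of 9 and that for IL1R1 in 4 of 9. The IL1RN calls rest on the probe set that its mimic values chose, alone or averaged with the second. The members called lower were 1 in place of 2 with no filter on dim probe sets, with 16 added to the intensity, with _s_at and _x_at probe sets left out and with a trended robust prior. With the replicate number as a block, 0 members were called lower in limma (IL36RN adjusted p = 0.0542, IL1R1 0.0819; 7 members at an unadjusted p below 0.05), 3 were called higher (IL1RAP was lost at 0.0508), and 979 of all genes were called lower against 1766. On leaving out 1 array, genes called higher numbered 0 to 796 and lower 0 to 167, members higher 0 to 2 and lower 0, and member probe sets 0 in limma, with 6 to 7 of them at an unadjusted p below 0.05. Genes of the IL1-induced list called lower then numbered 0 to 9 and higher 0 to 1; with all arrays 12 to 19 were lower, and 2 were higher with the lowest 50% of probe sets left out or 16 added and 3 with the trended prior. The list's alternatives were chosen after seeing the data. A second quantile normalization turned the split of all genes from 2544 higher and 1766 lower into 2058 and 2619. The cause of these changes was not tested, apart from the IL1RN reversal. Each dim value (IL33, IL1R2) is limited by its low signal.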
